A study of Mus musculus with 3 samples.

Results

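The intergenic poly(A) sites with a main signal are places outside annotated genes where RNA was cleaved and polyadenylated behind AATAAA, the canonical poly(A) signal, or ATTAAA, its commonest variant. Members were the autosomal sites with the deposited region code IG and either hexamer at a deposited offset from -40 to -10. This chose 12936 of 171741 autosomal sites, 10519 with the canonical hexamer and 2417 with the variant only. The code itself was checked against GENCODE M21: 12904 members overlapped no gene on either strand, 3 lay in a gene on their own strand and 29 in a gene on the other. Every member with an upstream gene end on its strand lay more than 1000 bases past it, and 8 members had no such end on their chromosome.

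The data are PAS-seq, made with the QuantSeq kit, which reads the 3′ ends of polyadenylated RNA. The series has 1 group of 3 libraries, biological replicates 1, 2 and 3 of F121-9, embryonic stem (ES) cells of a hybrid mouse line (Cast X 129). Each library was made at passage 14 from 500 ng of RNA, with no treatment and no second genotype, so all comparisons were made between kinds of site within the libraries. The labels name no separate cultures, so p-values rest on the spread between these libraries, which may in part be technical. Those of limma, used below for single sites, take this spread in large part from all sites fitted together.

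Cleavage and polyadenylation needs the signal hexamer, bound by the CPSF complex a short way upstream of the cut, and is aided by TGTA motifs upstream (UGUA in RNA, bound by cleavage factor I) and by GT-rich sequence downstream (bound by CstF). Outside annotated genes such sites can mark unannotated ends of long 3′ UTRs, unannotated transcripts or transcribed repeats. B2 elements, short interspersed repeats of rodents derived from a tRNA, carry poly(A) signals in their 3′ tails, and B2 RNA made by RNA polymerase III can be polyadenylated behind them.

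Sequences of the sites on which the results turn are shown first, read from the RefSeq copy of GRCm38.p6, the build of the deposited mm10 coordinates. The first set holds some of the most-read members, the member after Gm16363 and the most-read members after Tdh and Zfp42, each as the 30 bases that end at the site, 5′ to 3′ on its strand, with the signal in capitals. Each line names the closest M21 gene upstream on the strand.
Arf6, chr12:69375954-69375983, plus strand: cagaaAATAAAggaattacacagtgcagtt
Zfp982, chr4:147516036-147516065, plus strand: actaactccAATAAAgctgaaagattctac
Nkain1, chr4:130530137-130530166, minus strand: tggttgATTAAAaaaaaaagtgttttcttc
Cdyl2, chr8:116568725-116568754, minus strand: aagctgctttgAATAAAaagattgaaaatt
Rif1, chr2:52126739-52126768, plus strand: acttttatttaaAATAAAagtataacttat
Gm14325, chr2:177828993-177829022, minus strand: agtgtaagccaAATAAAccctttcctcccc
Gm16363, chr2:177539701-177539730, minus strand: agtataagctgAATAAAttctttcctcccc
Tdh, chr14:63491034-63491063, minus strand: ttcatATTAAAgcaacttttggagtcacct
Zfp42, chr8:43290848-43290877, minus strand: tgactgAATAAActgcatgattacatcctg

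The second set shows 4 well-read members with the exact 10-base word acagtgtact and their signal within 30 bases of its start. This word lies in the 3′ tail of B2. Each run is the 30 bases from the start of that word, so that the shared start and the spacing of the signal, in capitals, can be seen. Capitals mark 1 hexamer a site, and the runs of Gm15534 and Gm24897 hold 2 overlapping copies of AATAAA.
Tmc6, chr11:117650401-117650430, minus strand: acagtgtacttacatgtaatAATAAAgact
Impa1, chr3:10301585-10301614, minus strand: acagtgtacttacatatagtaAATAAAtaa
Gm15534, chr6:65001003-65001032, plus strand: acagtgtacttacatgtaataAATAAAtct
Gm24897, chr5:103920409-103920438, plus strand: acagtgtacttacatatgatAATAAAtaaa

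Depth and identity of the libraries were checked first. Autosomal sites held 9326090, 12500338 and 13040404 reads in replicates 1, 2 and 3. Replicate 3 had no reads on the sex chromosomes or the mitochondrial genome, so its RPM values (reads scaled to the library's total in the deposited files) run somewhat higher on autosomes, and shares below are of autosomal reads. Of 10 ES cell markers 8 reached 10 RPM, led by Nanog (723 RPM on average), while Dppa5a (0.314 RPM) and Utf1 (1.86 RPM) were near 0. Of 8 fibroblast markers only Thy1 did (84.4 RPM), with Dcn and Postn at 0 in all 3 libraries, and of 8 germ layer markers none did, with Afp at 0.

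Members were many and weakly read. They held 0.916%, 1.037% and 1.008% of autosomal reads in replicates 1, 2 and 3 (0.987% ± 0.0634, SD, n = 3). The 26913 intergenic sites without a main signal held 0.673%, 0.581% and 0.737%, and each library lay lower there than at members. The 21100 sites with the code TE (read here as terminal exon, 94.1% of them inside a gene on their strand) and a main signal held 72.0% ± 0.793 of reads (SD, n = 3). The median member had a mean of 0.157 RPM, against 0.0449 RPM for intergenic sites without a main signal and 2.61 RPM for TE sites with one. Of all members, 2828 reached 0.5 RPM, 1372 reached 1 RPM, 230 reached 5 RPM and 96 reached 10 RPM. The 100 most-read members held 35.1% of the members' summed RPM.

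Most members were seen in a single library. Reads were found in 1 library at 9215 members (71.2%), in 2 libraries at 2165 (16.7%) and in all 3 at 1556 (12.03%). The 1556 shared members held 68.4% of the members' summed RPM. Of those seen in a single library, 2299 were in replicate 1, 4375 in replicate 2 and 2541 in replicate 3. Only 33.4%, 32.5% and 38.9% of these rested on 1 read, so most had more.

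A main signal went with recurrence between libraries. Of the members read in replicates 1, 2 and 3, 30.7%, 20.1% and 28.8% also had reads in both other libraries. Of the intergenic sites without a main signal, 12.6%, 9.77% and 10.9% did. Members recurred more in 3 of 3 libraries, by 15.4 ± 4.42 percentage points (SD, n = 3), an exact sign-flip permutation p of 0.25 (two-sided). This is the smallest p that 3 libraries allow, and after Benjamini-Hochberg adjustment over the 10 comparisons of this kind it was 0.278. Members also had more reads per site. Among sites with a mean of at least 0.5 RPM the difference was 7.46 ± 6.17 points (exact sign-flip permutation p = 0.25, n = 3). TE sites with a main signal recurred at 78.2% ± 5.90 (SD, n = 3).

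The signal lay mostly near -20. At the 8845 members with a single main signal hexamer the median offset was -21 bases, and 66.4% lay between -25 and -15. The median was -20 for the canonical hexamer (6480 sites) and -22 for the variant (2365 sites). The 752 such members with the B2 word described below had a median of -14, with 37.8% between -25 and -15, against -21 and 69.1% for the 8093 others. Another 4091 members carried more than 1 such hexamer, and 509 carried both kinds. Near the limits of the rule, only sites with 1 main signal hexamer over all deposited offsets were counted. The 248 such members at -40 to -36 had a median of 0.0711 RPM and the 905 at -14 to -10 a median of 0.0673 RPM. Just outside, the 218 such sites at -45 to -41 had 0.0455 RPM and the 361 at -9 to -7 had 0.0301 RPM.

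**Figure D1:**
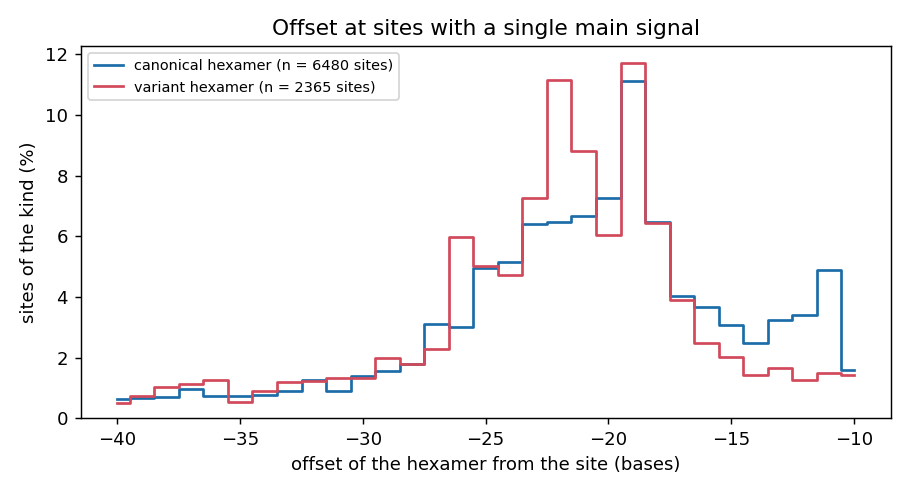
Offset of the hexamer from the poly(A) site (x axis, bases) at members with a single main signal, as a share of the sites of each kind (y axis, %), for the canonical hexamer (6480 sites, blue) and the variant (2365 sites, red). Both peak near -20, and the canonical hexamer has a second, smaller rise near -11.

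Levels behind AATAAA and ATTAAA were compared among better-read sites. Among members with a mean of at least 0.5 RPM, the 2350 canonical sites had medians of 0.902, 0.942 and 1.49 RPM in replicates 1, 2 and 3, and the 478 variant sites 0.992, 0.808 and 1.56 RPM. Canonical sites were higher in 1 library and lower in 2. The difference was 0.00 ± 0.18 (log2 of RPM + 0.05, SD, n = 3; exact sign-flip permutation p = 1), and its sign turned under several settings, given in the closing section. Reads were found in all 3 libraries at 45.8% of the canonical and 40.6% of the variant sites of this level. Over all members, with no minimum, the medians were 0.157 RPM for canonical and 0.135 RPM for variant sites. Canonical sites also recurred in both other libraries more often there (32.3%, 20.9% and 30.02% of read sites, against 23.6%, 16.4% and 22.9%), a difference that was not tested.

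Reads at members were concentrated behind gene ends. Of members, 26.4% lay within 10000 bases past a gene end on their strand, and they held 50.1%, 46.7% and 48.5% of the members' reads in replicates 1, 2 and 3. For intergenic sites without a main signal the shares were 34.1%, 34.3% and 33.4%. Members exceeded them in 3 of 3 libraries, by 14.5 ± 1.83 points (SD, n = 3; exact sign-flip permutation p = 0.25, adjusted 0.278). Without the sites that carry the B2 word described below the difference was 22.4 ± 0.803 points (SD, n = 3). The median distance was 35334 bases for members and 50710 bases for the others.

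The strand of the gene end was compared next. Within 10000 bases of an end on the opposite strand, measured in the same direction along the genome, members held 11.2%, 9.77% and 10.8% of their reads. The members' same-strand share was higher in 3 of 3 libraries, by 37.9 ± 1.01 points (SD, n = 3; exact sign-flip permutation p = 0.25, adjusted 0.278). Intergenic sites without a main signal had the same order. They held 33.9% ± 0.436 of their reads by same-strand ends and 6.38% ± 0.109 by opposite-strand ends (SDs over n = 3). An opposite-strand gene runs from its end towards the site, and sites inside such genes mostly have other codes. The code IG thus removed many close opposite-strand ends in advance, so this comparison cannot show a strand preference.

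The distance classes differed in level and make-up. Members 1000 to 2000 bases past an end were 833 sites with 16.9% ± 1.09 of the members' reads and a median of 0.314 RPM. At 2000 to 5000 bases 1392 sites held 23.0% ± 0.792, and at 5000 to 10000 bases 1191 sites held 8.56% ± 0.292. The 4108 members at 10000 to 50000 bases held 24.2% ± 1.10. The 5404 members beyond 50000 bases, 41.8% of all, held 27.3% ± 0.639 with a median of 0.112 RPM (SDs over n = 3). From the closest to the farthest class the share seen in all 3 libraries went from 19.8% to 10.01% and the share that used the canonical hexamer from 73.1% to 81.3%, with the highest value, 83.9%, at 5000 to 10000 bases. Of the 96 members at 10 RPM or more, 26 lay in the closest class, 24 in the next, then 7, 17 and 22.

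**Figure D2:**
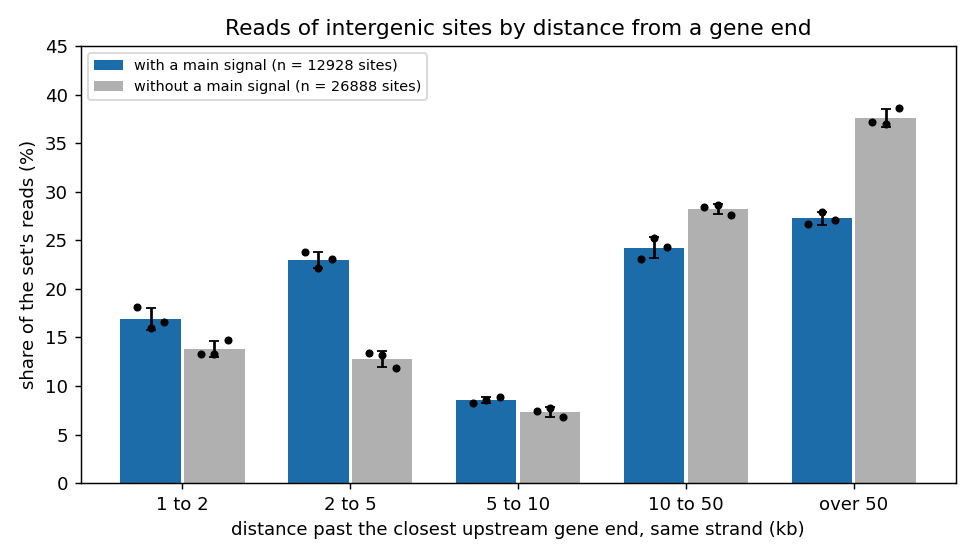
Share of reads (y axis, %) by distance past the closest upstream gene end on the same strand (x axis, kb) for intergenic sites with a main signal (blue) and without (grey). Bars are means of 3 libraries with SD, and dots are the libraries. The classes from 1 to 10 kb are higher with a main signal and the class beyond 50 kb is lower, 27.3% against 37.6%.

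Part of the read-rich members are ends that another annotation already holds. RefSeq places a transcript end within 50 bases of 416 members (3.22%), 173 of them ends of curated transcripts. These 416 held 28.5%, 24.5% and 26.2% of the members' reads in replicates 1, 2 and 3. At intergenic sites without a main signal RefSeq ends held 4.27%, 4.97% and 3.99% of reads. Members were higher in 3 of 3 libraries, by 22.0 ± 2.38 points (SD, n = 3; exact sign-flip permutation p = 0.25, adjusted 0.278), in a comparison added after the data were seen. The share of members at such an end was 11.8% at 1000 to 2000 bases and 1.41% beyond 50000. Of the 96 members at 10 RPM or more, 39 lay at one. In all, 1237 members (9.56%) lay inside a RefSeq gene and 597 in a RefSeq exon.

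The most-read member lay 2200 bases past the M21 end of Arf6, a small GTPase of endocytic traffic, at chr12:69375983. It had 333, 257 and 345 RPM in replicates 1, 2 and 3, while the annotated sites of Arf6 (those in its exons or the 1000 bases behind it) had 187, 193 and 188 RPM. The site was above the gene in every library, and the groups of values did not overlap. In limma, fitted to the log2 ratio of site to gene, the difference was 0.71 ± 0.87 (SE, n = 3; adjusted p = 0.496), so it did not pass. SEs of limma, here and below, are moderated: they draw in large part on all sites fitted and were alike at most named sites. Such an SE is not the site's own spread, so not passing does not show that its libraries disagreed. RefSeq ends a curated Arf6 transcript at this site.

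The second, 2579 bases past Zfp982, a zinc finger gene, had 132, 168 and 159 RPM, against 13.8, 10.97 and 8.75 RPM at the gene's annotated sites. It was higher in each library (log2 3.79 ± 0.88, SE; limma adjusted p = 0.021). RefSeq ends a curated Zfp982 transcript at this site.

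Nkain1, which encodes a protein that binds the sodium pump, had 84.3, 97.7 and 94.1 RPM at a site 1465 bases behind it and 54.4, 45.1 and 42.7 RPM at its annotated sites. Cdyl2, a chromodomain gene, had 67.6, 73.1 and 115 RPM at a site 5675 bases behind it and 11.7, 9.76 and 24.2 RPM at annotated sites. Both were higher at the intergenic site in every library, yet neither passed limma (adjusted p = 0.364 and 0.061). RefSeq ends a curated transcript of the same gene at each of these sites.

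Stk24, a kinase of the STE20 family, had 70.1, 78.9 and 84.3 RPM 2156 bases behind the gene. Glg1, a Golgi glycoprotein gene, had 75.9, 68.7 and 82.3 RPM 1108 bases behind it. Their annotated sites had 42.3 ± 7.04 and 46.3 ± 5.53 RPM (SD, n = 3), and neither ratio passed (limma adjusted p = 0.398 and 0.493). Rif1, a gene of replication timing and telomere biology, differed from these: its site 4385 bases behind the gene had 46.6, 90.9 and 58.4 RPM, below the 186, 173 and 181 RPM of its annotated sites in every library (adjusted p = 0.202, limma). RefSeq ends a transcript of the same gene at the sites of Stk24, Glg1 and Rif1, a curated one for Glg1 and Rif1.

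Some of the most-read members had no read gene close upstream. The member 29251 bases past Sapcd1 had 65.9, 68.9 and 97.8 RPM, with Sapcd1 itself at 0 in all 3 libraries, and lay at the end of a curated RefSeq transcript of another gene, D17H6S56E-5. A pair of members 59391 and 59556 bases past Zfp97 had 70.3 ± 12.4 and 62.6 ± 4.65 RPM (SD, n = 3), with Zfp97 at 0, and both lay at ends of the RefSeq gene Gm38396. These neighbours end the same RefSeq gene and are not independent. The member 67397 bases past BC002059 had 53.1, 51.9 and 60.2 RPM at a curated end of Gm51425. The M21 gene closest upstream is therefore a measure of position and not the parent of every site.

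**Figure D3:**
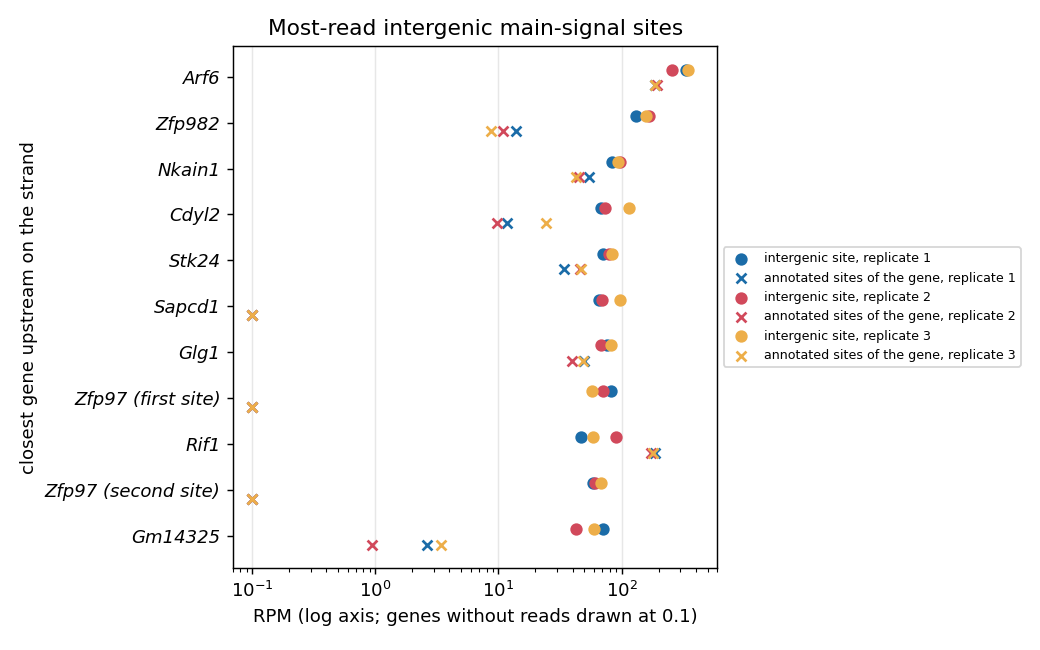
RPM (x axis, log) of 11 of the 12 most-read members (dots) and of the annotated sites of the closest upstream M21 gene (crosses) in replicates 1 to 3 (colours). Crosses at 0.1 are genes without reads. Dots lie right of the crosses in 3 of 3 libraries for 10 of these 11 members, the exception being Rif1. The members were picked for their own high RPM, which favours this order. Each of them lay at a RefSeq transcript end.

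A pair of loci on chromosome 2 had alike ends. The member 2798 bases past Gm14325 had 70.8, 42.5 and 59.7 RPM against 2.62, 0.942 and 3.41 RPM at the gene (log2 4.75 ± 0.90, SE, n = 3; limma adjusted p = 0.014). RefSeq ends a curated Gm14325 transcript at this member. The member's 40 bases upstream occur 32 times in the genome, so the origin of its reads is uncertain. The member past the pseudogene Gm16363 had 30.5, 22.6 and 22.6 RPM with the gene at 0, and its 40 bases occur once. The sequences shown above end alike, in ctttcctcccc.

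Members in general were set against their closest upstream gene. The fit took all 1601 intergenic sites with a mean of at least 0.5 RPM within 10000 bases of an end, 1017 of them members. Of these 1017 members 148 (14.6%) were above their gene and 396 (38.9%) below, calling a site where limma's adjusted p was below 0.05 and the ratio at least 2-fold. Over all sites fitted 12.9% were above and 41.6% below, so the members' shares lie near the background. The median ratio was -1.27 (log2) for members and -1.93 for all sites. Its sign turned with the minimum, which is set on the site's own RPM, so that a higher minimum favours higher ratios. Among sites with a mean of at least 2 RPM it was 0.45 for members and 0.29 for all sites. There 109 of 285 members were above their gene and 102 below, against 141 and 139 of all 374 sites fitted. With no minimum 181 of 3416 members were above and 1571 below, against 258 and 4094 of all 8710 sites. These calls rest on the variance model and on 3 libraries: the edgeR quasi-likelihood test on recovered reads called 0 members (439 at an unadjusted p under 0.05), and limma without replicate 1, 2 or 3 called 0 (480, 426 and 501 at an unadjusted p under 0.05).

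Of the 148 members above their gene, 99 followed a gene without reads and 27 a protein-coding gene with reads. At 27 RefSeq ended a transcript, and 27 carried the B2 word. Among the 158 members fitted at a RefSeq end the median ratio was 0.38 (log2), with 27 above and 38 below. Among the 859 others it was -1.63, with 121 above and 358 below. Of the 692 members behind protein-coding genes 46 were above and 382 below. When fitted to ends of protein-coding genes only, 51 of 704 members were above and 401 below, against 66 and 659 of all 1087 sites.

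**Figure D4:**
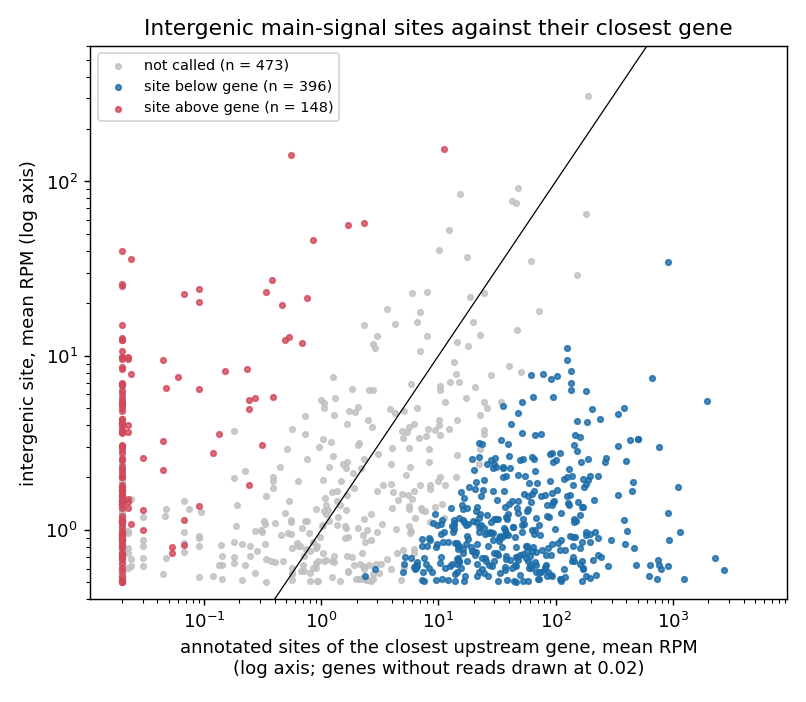
Mean RPM of 1017 members (y axis, log) against that of the annotated sites of their closest upstream gene (x axis, log; genes without reads at 0.02). Red points were called above the gene (148), blue below (396) and grey neither (473), and the line marks equal values. Most red points lie at the left edge, where 99 genes had no reads.

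The highest called ratios were at pseudogenes. The member 1624 bases past Gm11847, a processed pseudogene, had 33.9, 45.1 and 39.96 RPM with the gene at 0, at least 529-fold higher against a floor of 3 reads over the 3 libraries (limma adjusted p = 0.011). This member lies in a RefSeq exon inside the RefSeq gene Gm11847, so the ratio sets it against an M21 gene that ends earlier. The member 1251 bases past Gm12726 had 26.3, 41.7 and 40.5 RPM, and that pseudogene had a single read in replicate 3 and none in replicates 1 and 2. The members past Gm16363 and Gm15534 were at least 336-fold and 344-fold higher than genes at 0. In the class from 5000 to 10000 bases, the member past the long noncoding gene A930038B10Rik had 25.4, 21.5 and 25.2 RPM and a RefSeq end of Gm30969, and the member past Gm10769 had 25.4, 15.2 and 29.3 RPM.

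Beyond 10000 bases, the member 23255 bases past Gm11279 had 30.4, 24.8 and 32.3 RPM, and no RefSeq end lay there. The member 31556 bases past 1700084C06Rik had 8.66, 26.5 and 42.4 RPM, a spread of 65.3% (coefficient of variation). Both genes were at 0 in all 3 libraries.

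Members behind genes of pluripotency were counted by list. Of 31 autosomal genes of the list, 11 had a member within 10000 bases (16 sites), and Dppa4, Tdh and Zfp42 had one at 1 RPM or more. For comparison, 940 of 7419 protein-coding genes at 10 RPM or more (12.7%) had a member there, and 196 (2.64%) had one at 1 RPM or more. The lists were chosen with earlier results of these data known, and no test was made of these counts. The 8 other listed genes with a member were Dppa2, Fbxo15, Klf4, Klf5, L1td1, Lefty2, Prdm14 and Trim28, where each member had reads in 1 library only and a mean of 0.0224 to 0.301 RPM.

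Tdh, the threonine dehydrogenase on which mouse ES cells depend, had 3 members. The nearest, 1313 bases behind the gene, had 31.5, 39.9 and 32.6 RPM, while the gene had 827, 904 and 996 RPM (log2 -4.72 ± 0.87, SE, n = 3; limma adjusted p = 0.013). The one 5209 bases behind had 1.08, 0.741 and 1.92 RPM. The one 1868 bases behind had 0, 1.01 and 0.853 RPM. No sample of these sites came near the gene's level.

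Zfp42 (Rex1), a marker of naive pluripotency, had 3 members too, and its annotated sites had 17.0, 21.7 and 23.5 RPM. The member 4215 bases behind had 0.541, 1.28 and 3.84 RPM (log2 -3.83 ± 0.96, SE; limma adjusted p = 0.026). The member 2688 bases behind had 1.89, 1.95 and 0 RPM (limma adjusted p = 0.038). The one 4320 bases behind was read in replicate 2 only, at 0.741 RPM. Dppa4, a chromatin-associated developmental pluripotency gene, had 203, 190 and 196 RPM at annotated sites and 4.87, 1.21 and 0 RPM at a member 7212 bases behind (limma adjusted p = 0.014). That member lies 2459 bases before Dppa2, and like the nearest Zfp42 member it lacked reads in replicate 3.

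Of 22 genes of cleavage and polyadenylation, Nudt21 and Wdr33 had members within 10000 bases (5 sites), with means of 0.0474 to 0.747 RPM. The 4 behind Wdr33, a signal-binding subunit of CPSF, had no reads in replicate 2. Over all genes, 2847 had a member within 10000 bases, 431 had more than 1, and the largest number was 6. Of members, 954 (7.37%) had another within 1000 bases on the strand.

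B2 tails were the commonest shared sequence of members. The most frequent 10-base word in the 60 bases upstream that holds no signal was ACAGTGTACT. This word was chosen after seeing the sequences, and no repeat annotation was used. Members without the word may therefore still include B2 tails, for example among those with the last further word listed at the end. It was exact in 2462 members (19.0%) and in 275 intergenic sites without a main signal (1.02%). With up to 1 mismatch it was found in 3402 members (26.3%), against 1.501% of those sites and 0.882% of TE sites with a main signal. The B2 tail itself holds AATAAA, so the rule favours it, and these shares are a description only. The reverse complement was found in 21 members.

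Other regions carried the word as well. Among sites with a main signal it preceded 37.0% of sites coded AI (99.7% of them inside a gene on the opposite strand), 17.6% of those coded IN (all inside a gene on their strand) and 4.302% of those coded DS. From the end of the word to the poly(A) site the median was 30 bases, and 84.8% of the 3402 members had 20 to 40 bases.

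**Figure D5:**
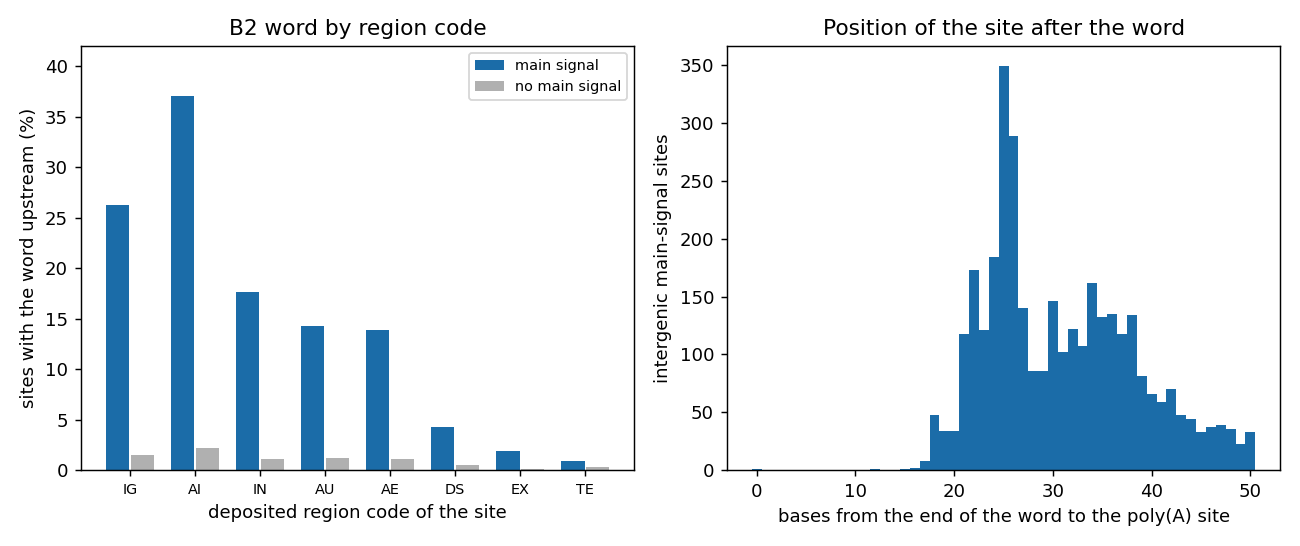
Left, share of autosomal sites with the B2 word (up to 1 mismatch) in the 60 bases upstream (y axis, %) by deposited region code (x axis), with a main signal (blue) and without (grey): 26.3% against 1.501% for IG. Right, number of members (y axis) by bases from the end of the word to the site (x axis), with 84.8% at 20 to 40. The window allows at most 50.

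Members with the word differed from the other 9534 in several features. Nearly all, 99.2%, used the canonical hexamer, against 74.9%, and 97.3% were soft-masked in the reference, against 58.6%. Their 40 bases upstream occurred more than once in the genome at 45.2%, against 15.1%, so the placing of reads is uncertain at these. A-rich sequence downstream (12 or more A, or 6 A in a row, among 20 bases, where the primer can bind inside a transcript) followed 20.3%, against 4.44%. RefSeq ended a transcript at 8 of the 3402. Whether internal priming or misplaced reads add to their number was not tested.

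Their share of the members' reads was 17.2%, 26.2% and 22.4% in replicates 1, 2 and 3, so replicate 1 was lowest. Within 10000 bases of a gene end they held 19.7%, 20.8% and 20.1% of their reads, against 56.5%, 56.0% and 56.7% for other members. The difference was -36.2 ± 0.857 points (SD, n = 3; exact sign-flip permutation p = 0.25, adjusted 0.278), in the same direction in 3 of 3 libraries. They recurred in both other libraries at 41.7%, 22.9% and 33.6%, against 27.0%, 18.9% and 26.7%. That was higher in 3 of 3 libraries, by 8.50 ± 5.56 points (SD, n = 3; exact sign-flip permutation p = 0.25, adjusted 0.278). Between the remaining libraries it was 13.8 points without replicate 1 and 13.5 points without replicate 3. At 0.5 RPM or more the 859 members with the word had a median of 0.963 RPM and the 1969 others 0.980 RPM.

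The most-read member with the word lay 115597 bases past Tmc6, a transmembrane channel-like gene, in a stretch that occurs once in the genome. It had 59.5, 57.4 and 49.9 RPM, alike in the 3 libraries (CV 9.07%). The member past Impa1, an inositol monophosphatase gene, had 30.04, 30.6 and 33.5 RPM and lay 396 bases before the next gene, Fabp12. The member past Gm15534 had 15.2, 39.9 and 22.3 RPM, and its 40 bases occur 25 times in the genome. Of the 96 members at 10 RPM or more 14 carried the word.

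Auxiliary motifs were compared with intergenic sites without a main signal, as shares of the sites read in each library. TGTA in the 60 bases upstream was found at 52.4%, 54.6% and 54.3% of members read in replicates 1, 2 and 3, against 19.8%, 20.5% and 19.7%. The difference was 33.7 ± 1.01 points (SD, n = 3; exact sign-flip permutation p = 0.25, adjusted 0.278). The B2 word holds TGTA, and without the sites that carry it the difference was 18.7 ± 0.450 points. TE sites with a main signal had TGTA at 37.0% ± 0.432, and members without the B2 word at 37.7% ± 0.231 (SD, n = 3).

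TGTG or GTGT in the 40 bases downstream was found at 32.5%, 31.5% and 31.2% of members and 22.1%, 23.6% and 22.8% of the others, a difference of 8.90 ± 1.38 points. It was 14.3 ± 1.28 points without sites with the B2 word and 0.613 ± 0.304 points for the longer TGTGTG or GTGTGT. TE sites with a main signal had the shorter motif at 41.5% ± 0.423. A-rich sequence followed 7.85%, 9.24% and 9.32% of members and 14.6%, 13.1% and 12.5% of the others, a difference of -4.59 ± 1.86 points. It was -8.36 ± 1.38 points without sites with the B2 word, -10.98 ± 1.92 points among sites with a mean of at least 0.5 RPM and -0.781 ± 1.08 points for a run of 6 A alone. Each of these differences had the same exact sign-flip permutation p of 0.25 (n = 3; SDs over libraries), adjusted 0.278 for those as first defined. For the run of 6 A alone the difference was smaller than its spread. At TE sites with a main signal A-rich sequence followed 1.21% ± 0.0750 (SD, n = 3), below both intergenic sets. All 3 motifs were searched on the strand of the site only.

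Repeated sequence was common among members. The 40 bases upstream occurred more than once in the genome at 2982 members (23.1%), more than 100 times at 994, and these 2982 held 21.7%, 23.0% and 21.4% of the members' reads. Soft-masked sequence held 8899 members (68.8%), against 59.3% of intergenic sites without a main signal and 19.5% of TE sites with one. By reads the order was the opposite in 3 of 3 libraries: soft-masked sites held 53.4% ± 3.27 of the members' reads and 61.9% ± 0.727 of those at sites without a main signal. Repeated 40-base stretches likewise preceded more of the members than of the others (23.1% against 17.4% of sites) but held a smaller share of reads (22.0% ± 0.860 against 26.5% ± 0.285, SDs over n = 3). Single sites weigh on such shares of reads. The most-read site had 414 of a summed 5794 RPM without a main signal and 311 of 8593 RPM among members. These shares were not recomputed without them.

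Levels varied between libraries. Over the 230 members with a mean of at least 5 RPM the coefficient of variation had a median of 31.7% (quartiles 17.9% and 52.0%). Replicate 3 was highest at 101 of them, replicate 1 at 64 and replicate 2 at 65. These counts use deposited RPM, which run higher on autosomes in replicate 3, and were not repeated on autosomal reads. The largest spread was at the member 2835 bases past Gm10351, with 0, 16.4 and 2.77 RPM, read in replicates 2 and 3 only. Scube2, a secreted factor of hedgehog signalling, had 3.88, 0.808 and 11.9 RPM at a member 1884 bases behind it. Phkb, a phosphorylase kinase subunit gene, had 2.26, 2.36 and 11.7 RPM at a member 2874 bases behind. BC024063 had 0.722, 5.79 and 14.5 RPM 11706 bases behind. At the last 3 the highest library was replicate 3.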

How the data were processed

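PAS-seq libraries were described as 1 group of 3 replicates. The unit of each site is RPM, deposited by the authors and read from the values, as the files have no header. The deposited fraction of libraries with a read, and the mean RPM, matched a recomputation at all 178115 sites. Per the text files deposited by the authors, the build is mm10 and the annotation GENCODE M21. For the aligner, the site caller and reads with several places, versions and settings were not given in the sources used here. Whole reads were recovered from RPM (100% within 0.01 reads), from denominators of 11085428, 14855484 and 14064461 reads. Reads carry no molecular identifiers in the sources used here, and floors (3 reads) cover counting error only.

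The region code and the hexamers with their offsets are the deposited ones. All 181936 hexamers were found in GRCm38.p6. Codes are not explained in the files. Gene level is the RPM summed over sites in exons and the 1000 bases downstream. Site and gene were compared with limma 3.58.1 (R 4.3.3) on log2((site RPM + 0.05)/(gene RPM + 0.05)), which understates ratios of low genes, over all intergenic sites with a mean of at least 0.5 RPM, with Benjamini-Hochberg adjustment. The script was tested on simulated data. edgeR 4.0.16 on the recovered reads was an alternative and called 0 of 1601 sites. Shares were compared with exact sign-flip permutation tests over libraries. B2 is named from textbook knowledge of its tail. Copies were counted as exact matches in the genome on both strands.

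Named sites, of which 1 is not reported here, were the 12 with the highest mean RPM, the 4 highest in each of 4 distance classes, the 4 highest called ratios, the 4 largest spreads at 5 RPM or more, and listed genes with a member at 1 RPM or more; Gm24897 and the members below 1 RPM behind listed genes were added after their values were seen. The members and lists were chosen with earlier results of these data known. Alternatives were other pseudocounts, minimums, offsets, distances and motifs, leaving out each library, and, chosen after seeing the data, leaving out sites with the B2 word, the exact word only, a minimum for recurrence, and curated RefSeq ends. The comparisons of members with the B2 word and of RefSeq ends were also added after seeing the data. Sites on the sex chromosomes were left out, since replicate 3 has no reads there.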

Additional observations from a re-analysis of the deposited data

Results flagged for a closer look

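On the X chromosome, which the comparisons above leave out, 668 sites had the code IG and a main signal. They summed to 781.6 RPM in replicate 1 (333 sites read) and 876 RPM in replicate 2 (496 sites read). These were 2.60% and 2.87% of the X-linked reads of the libraries. In replicate 3 they had 0 reads, as did all X-linked sites of that library. They are listed here because they hold signal in data that no comparison used.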

How the results depend on the processing

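The share of autosomal reads at members (0.987%) was 0.859% of all reads in the RPM scale, 0.802% with the canonical hexamer only, 0.675% with sites read in all 3 libraries only and 0.769% without sites with the B2 word. The share of reads in repeated sequence (22.0% at 40 bases) was 33.4% at 30 bases. The canonical against variant difference in level (0.00, log2) was -0.0197 at a mean of at least 2 RPM and ranged from -0.107 to 0.0357 without each library in turn (-0.0629 without replicate 1, -0.107 without replicate 3). Members above their gene (148) numbered 181 with no minimum, 109 at a mean of at least 2 RPM, 51 with protein-coding ends only, 0 with edgeR and 0 to 0 without each library in turn. Members below (396) numbered 1571 with no minimum, 102 at a mean of at least 2 RPM, 0 with edgeR and 0 to 0 without each library. More sites were fitted with no minimum (3416 members) and fewer at 2 RPM (285); the cause of the other changes was not tested. For recurrence, leaving out each library compares only 2 libraries and gave 19.1 to 20.5 points. Recurrence of members with the B2 word against other members (8.50) gave 10.4 to 13.8 points. The median ratio of members to their gene turned from -1.27 (log2) to 0.45 at a mean of at least 2 RPM, a minimum set on the site's own level. The other differences in shares kept their direction under the alternatives run, and with 3 libraries no sign-flip test could reach a p below 0.25. Calls of named sites stayed on their side of the threshold in 57 repeats and lost it in 52. No paired analysis was possible because there is 1 group, and every difference was already taken within a library. Sites at 1 read set the depth limit: the median member had 0.157 RPM.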

Other observations

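Further words recurred upstream of members beside the B2 word, found after the sequences were seen and given without a test. Each was counted with up to 1 mismatch. Members with the B2 word or with an earlier word of this list were left out. The intergenic sites without a main signal were all searched, so the counts of the groups are not alike. AGCCCCAATTAA preceded 383 members (2.96%) and 37 intergenic sites without a main signal, at a median of 0.0902 RPM. ATAAACCCTTTC preceded 314 members (2.43%) and 39 others. The member past Gm14325, at 57.7 RPM the most-read with this word, is shown above. ATAAAAATCCTC preceded 239 members (1.85%) and 24 others, at a median of 0.224 RPM and at most 13.4 RPM. TACATATAATAA preceded 374 members (2.89%) and 142 others. With up to 1 mismatch it also directly follows the B2 word in each B2 run shown above, so these 374 members may include B2 tails. The most-read of these members had 25.9 RPM, the one past 1700084C06Rik. The words overlap the signal or its flank, so the rule favours them. Their repeat families were not looked up.

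Members were found on all 19 autosomes, from 346 on chromosome 19 to 1004 on chromosome 4.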
